A study of Mus musculus with 18 samples.

Results

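A set of 10 enzymes that carry carbon and nitrogen from amino acids and pyruvate towards glucose were followed through all 6 treatment groups of the series. They were listed by gene symbol and role, with no threshold on their values, although earlier results of these data were known. They are Pck1, Pcx and Fbp1 of gluconeogenesis, the aminotransferases Tat, Got1, Gpt and Oat, and the deaminases and amidase Sds, Hal and Gls2. All 10 symbols were found among the 16533 genes of the liver table, and 9 among the 15579 genes of the AML12 table. Fbp1 was not analysed here in AML12 hepatocytes.

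Gluconeogenesis makes glucose from lactate, glycerol and amino acids, and in the liver it is raised by glucagon and glucocorticoids and restrained by insulin. Aminotransferases move the amino group of an amino acid to a keto acid, while deaminases and glutaminase release it as ammonia, which hepatocytes turn into urea. The carbon skeletons that remain enter the citric acid cycle or become pyruvate, and phosphoenolpyruvate carboxykinase then commits them to the path back to glucose.

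The livers came from 6 male *db*/*db* mice (B6.Cg-dock7m Leprdb/++/J), which lack a working long leptin receptor and become obese and diabetic, so every mouse of both groups carried this genotype and no lean mouse entered the comparison. In the rMSA group 3 mice received rMSA, a mouse serum albumin made recombinantly, by vein (1.5 mg for each gram the mouse weighed), every 3 weeks, with 3 injections over 9 weeks, and 3 received saline on the same schedule, and the livers were taken from fed animals whose age is not given in the sources used here. AML12, a single line established from hepatocytes of a mouse transgenic for human transforming growth factor alpha, was kept in medium with insulin and dexamethasone, starved of serum overnight and then given rMSA (600 μM) with insulin (10 nM), rMSA alone, insulin alone, or vehicle for 24 h (n = 3 each). The labels do not say whether these 3 samples were separate cultures, so p-values in AML12 measure only the spread between samples, which may be technical.

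The values were the authors' TPM (length-scaled transcript abundance), which relate reads to gene length, so levels may be compared between genes of one table. TPM keeps no read count, so the depth behind each value is unknown. The 2 tables were normalised separately and are set side by side only as description. Ribosomal protein genes took 3.12% to 4.49% of the TPM in the 6 livers. They took 33.3% and 36.0% in insulin samples 1 and 2, against 26.6% in insulin sample 3 and 21.9% to 27.7% in the other 9 AML12 samples. The median TPM over tested genes was 14.6 and 11.2 in insulin samples 1 and 2, against 16.2 to 22.6 in those 9, so these samples stood apart. Member results that rest on them are given with and without them, and those of other genes only in part. The defining hepatocyte markers were present in the livers, where 8 genes (Alb, Ttr, Apoa1, Apob, Trf, Fgb, Cps1 and Hnf4a) summed to 84169 to 89234 TPM with rMSA and 60589 to 79544 TPM with saline. The same 8 genes summed to 794 to 1187 TPM over the AML12 samples, and Cps1, the first enzyme of the urea cycle, was at 0 in all vehicle, rMSA and rMSA + insulin samples. Of 6 cholangiocyte markers (Krt19, Krt7, Epcam, Sox9, Cftr and Spp1), the 4 found in AML12 summed to 1680 to 2254 TPM. That is above the hepatocyte sum of every AML12 sample, and the 6 summed to 22.5 to 167 TPM in the livers. The name AML12 hepatocytes is the paper's.

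Promoter windows of 300 bases (250 before and 50 after the RefSeq start, GRCm38.p6) were at hand for 7 of the 10 members, with 2 windows for Pcx. The windows of Pck1 and Pcx are shown because they alone held a searched motif, and those of Tat, Got1 and Oat because these genes had the 3 largest falls in the liver. Capitals mark the searched letters on either strand, and positions count from 0 at the start site. The windows are Pck1 at chr2:173152823-173153122 (+ strand), the first window of Pcx at chr19:4510222-4510521 (+ strand), Tat at chr8:109990186-109990485 (+ strand), Got1 at chr19:43524556-43524855 (- strand) and Oat at chr7:132576349-132576648 (- strand). The start of the Tat window lies 4358 bases inside the outer limit of the gene as RefSeq gives it, so it belongs to an inner start site.
Pck1: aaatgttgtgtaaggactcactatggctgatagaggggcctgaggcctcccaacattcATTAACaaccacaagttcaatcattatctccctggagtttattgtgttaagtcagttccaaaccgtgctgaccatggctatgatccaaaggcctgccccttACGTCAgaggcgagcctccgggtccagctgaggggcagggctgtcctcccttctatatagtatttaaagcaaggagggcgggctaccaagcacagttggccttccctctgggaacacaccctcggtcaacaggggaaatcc
Pcx: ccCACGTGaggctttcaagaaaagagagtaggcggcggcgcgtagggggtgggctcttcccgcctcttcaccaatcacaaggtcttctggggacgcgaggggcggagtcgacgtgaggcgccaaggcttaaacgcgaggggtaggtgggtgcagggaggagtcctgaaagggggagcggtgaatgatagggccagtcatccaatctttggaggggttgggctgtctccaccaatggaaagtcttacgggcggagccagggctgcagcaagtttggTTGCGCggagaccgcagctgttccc
Tat: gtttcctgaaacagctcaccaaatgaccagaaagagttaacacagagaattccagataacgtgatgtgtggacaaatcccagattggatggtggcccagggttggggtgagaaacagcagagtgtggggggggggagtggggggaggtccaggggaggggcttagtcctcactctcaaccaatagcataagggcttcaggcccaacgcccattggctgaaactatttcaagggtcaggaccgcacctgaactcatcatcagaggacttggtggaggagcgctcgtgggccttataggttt
Got1: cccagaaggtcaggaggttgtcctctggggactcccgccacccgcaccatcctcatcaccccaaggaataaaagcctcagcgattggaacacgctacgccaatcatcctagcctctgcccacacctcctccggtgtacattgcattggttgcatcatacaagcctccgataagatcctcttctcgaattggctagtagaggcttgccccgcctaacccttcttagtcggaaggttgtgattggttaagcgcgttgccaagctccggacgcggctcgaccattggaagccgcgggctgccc
Oat: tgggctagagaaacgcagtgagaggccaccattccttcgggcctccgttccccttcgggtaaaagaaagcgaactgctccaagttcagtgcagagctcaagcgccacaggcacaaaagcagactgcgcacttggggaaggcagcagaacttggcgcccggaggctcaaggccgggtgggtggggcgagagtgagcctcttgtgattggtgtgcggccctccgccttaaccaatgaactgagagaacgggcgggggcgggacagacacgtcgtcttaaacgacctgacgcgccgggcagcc
The Pck1 window held the letters TGACGT (part of the cAMP response element) on its reverse strand at positions -91 to -86, and GTTAAT (part of an HNF1 site) on its reverse strand at -192 to -187. The Pcx window held CACGTG (the E-box) at -248 to -243 and TTGCGC (a C/EBP letter string) at 25 to 30. TGACGT stood in 7.51% of all 32851 windows of this length, GTTAAT in 7.10%, CACGTG in 7.15% and TTGCGC in 6.49%. TGTTTAC (forkhead, 3.65% of all windows), TGTTTTG (insulin response, 6.28%) and TGTTCT (part of the glucocorticoid response element, 19.0%) were in none of the 8 member windows, which says only that these letters are not in these windows. None of the 4 matches overlapped another.

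In *db*/*db* livers, rMSA treatment went with lower RNA of the enzymes. Of the 10, 8 were lower in the rMSA livers than in the saline livers and 1 was higher. The falls ran from 2.06-fold for Gpt to 13.4-fold for Got1, and all 4 aminotransferases and all 3 deaminases or amidases were among them. Of the 3 gluconeogenic enzymes, Pck1 was lower, Pcx was higher and Fbp1 did not pass the test. The test was limma on log2(TPM + 1) over 11398 genes whose mean reached 1 TPM, with Benjamini-Hochberg adjusted p under 0.05 taken as passing, and fold changes on this scale understate the change of low genes. Of all tested genes 8.38% passed as lower and 21.8% as higher. The 3 rMSA livers lay wholly below the 3 saline livers for 8 members, against 13.0% of all tested genes, and wholly above them for 1 member, against 32.7%. The median log2 fold change was -2.28 over the 10 members and 0.12 over all tested genes. Bulk liver RNA cannot tell fewer cells of a type from less RNA per cell. All genes split into 2487 higher and 955 lower, and into 1642 and 1496 after median centring, which moved the median of all genes to -0.02, whereas the 9 calls among the members held under all 16 alternatives tried.

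Pck1 (gene ID 18534, chromosome 2, 173153073 to 173159274) encodes the cytosolic phosphoenolpyruvate carboxykinase, which turns oxaloacetate into phosphoenolpyruvate. It had 964, 778 and 1190 TPM in the rMSA livers, against 4807, 4432 and 4482 TPM in the saline livers. The groups were far apart, and the log2 fold change was -2.25 (SE 0.16, adjusted p = 4.6e-05), a 4.74-fold lower level. Pcx (gene ID 18563, chromosome 19, 4510472 to 4621752), the mitochondrial pyruvate carboxylase that makes oxaloacetate one step earlier, ran the other way. It had 500, 538 and 509 TPM in the rMSA livers, against 244, 268 and 316 TPM in the saline livers. Every rMSA liver was above every saline liver (log2 fold change 0.91, SE 0.11, adjusted p = 0.00078). Fbp1 (gene ID 14121, chromosome 13, 62864753 to 62888298), the liver fructose-1,6-bisphosphatase, had 2632, 2762 and 2288 TPM in the rMSA livers, against 2147, 2253 and 2337 TPM in the saline livers. These ranges overlapped, and the log2 fold change of 0.19 (95% interval -0.08 to 0.45, adjusted p = 0.27) did not pass. It passed under quantile normalisation alone among 16 alternatives (0.43, adjusted p = 0.011).

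Among the aminotransferases, Tat (gene ID 234724, chromosome 8, 109986078 to 109999804) encodes tyrosine aminotransferase, the first step of tyrosine breakdown. It had 610, 552 and 692 TPM in the rMSA livers, against 5007, 4587 and 4707 TPM in the saline livers. Its log2 fold change of -2.95 (SE 0.12, adjusted p = 3.6e-06) ranked 13 by p-value among all 11398 genes. Got1 (gene ID 14718, chromosome 19, 43499752 to 43524605), the cytosolic aspartate aminotransferase of the malate-aspartate shuttle, had 193, 132 and 102 TPM in the rMSA livers, against 1826, 1726 and 2029 TPM in the saline livers. Its fall was the deepest of the 10 (log2 fold change -3.74, SE 0.21, adjusted p = 1.7e-05). Oat (gene ID 18242, chromosome 7, 132557475 to 132576398), the mitochondrial ornithine aminotransferase, had 364, 266 and 231 TPM in the rMSA livers, against 2555, 3250 and 2374 TPM in the saline livers. It was 9.56-fold lower (log2 fold change -3.26, SE 0.19, adjusted p = 1.9e-05). Gpt (gene ID 76282, chromosome 15, 76696726 to 76699675) encodes the cytosolic alanine aminotransferase, which links alanine and pyruvate. It had 271, 242 and 245 TPM in the rMSA livers, against 464, 543 and 555 TPM in the saline livers. Its fall was the smallest of the 8 (log2 fold change -1.04, SE 0.11, adjusted p = 0.00027), although the groups did not overlap.

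Sds (gene ID 231691, chromosome 5, 120476547 to 120483932), serine dehydratase, makes pyruvate and ammonia from serine. It had 483, 365 and 289 TPM in the rMSA livers, against 2253, 2136 and 2649 TPM in the saline livers (log2 fold change -2.65, SE 0.18, adjusted p = 4.4e-05). Gls2 (gene ID 216456, chromosome 10, 128194635 to 128210004), the liver glutaminase, which frees ammonia from glutamine, had 269, 157 and 153 TPM in the rMSA livers, against 886, 921 and 994 TPM in the saline livers (log2 fold change -2.31, SE 0.20, adjusted p = 0.00013). For both genes the highest rMSA liver was under the lowest saline liver. Hal (gene ID 15109, chromosome 10, 93488768 to 93516761), histidine ammonia-lyase, opens histidine breakdown. It had 151, 63.5 and 61.9 TPM in the rMSA livers, against 304, 372 and 361 TPM in the saline livers. Its log2 fold change of -2.02 had the widest error of the 10 (SE 0.31, adjusted p = 0.0019), since rMSA liver 1 was well above rMSA livers 2 and 3. By position Sds overlaps Plbd2, Gls2 overlaps Spryd4, Pcx overlaps Lrfn4, Tat overlaps Gm45795 and Fbp1 overlaps Gm38679. The strand setting of the counting is not given in the sources used here, so reads of such pairs cannot be told apart; Plbd2 reached at most 71.9 TPM in any liver, Spryd4 36.9 TPM and Lrfn4 1.51 TPM, while Gm45795 and Gm38679 were not analysed here.

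**Figure D1:**
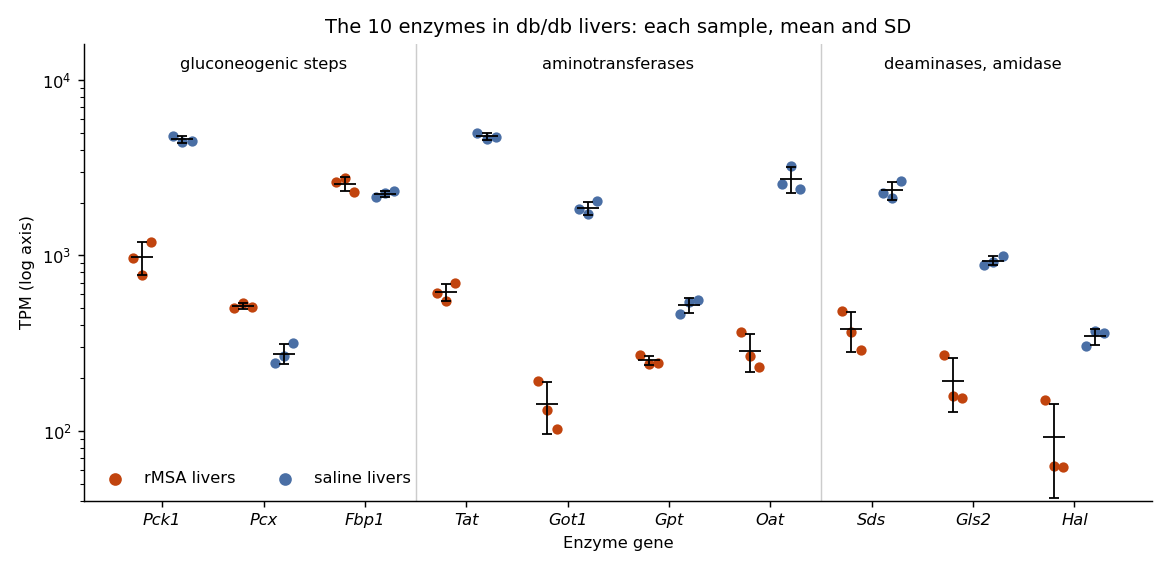
TPM of the 10 enzymes (log axis) in each rMSA liver and each saline liver of *db*/*db* mice, with the mean and SD of the 3 samples in black. The rMSA points lie below the saline points for 8 genes, above them for Pcx (500 to 538 against 244 to 316 TPM), and overlap them for Fbp1.

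The 10 enzymes together held 0.576% to 0.644% of all TPM in the rMSA livers, against 2.05% to 2.08% in the saline livers. Their order by level also differed between the groups. With rMSA, Fbp1 led at 2561 ± 245 TPM (SD, n = 3) and Pck1, Tat and Pcx followed at 977, 618 and 516 TPM, each of these apart from its neighbour in every sample. From Sds (379 TPM) through Oat (287), Gpt (253), Gls2 (193) and Got1 (143) to Hal (92.0 TPM), each neighbouring pair overlapped in its samples. With saline, Tat (4767 ± 216 TPM) and Pck1 (4574 ± 204 TPM) headed the order with overlapping samples, and Oat, Sds and Fbp1 came next at 2726, 2346 and 2246 TPM, also overlapping from one to the next. Got1 (1861 TPM), Gls2 (934 TPM) and Gpt (521 TPM) were each apart from their neighbours, and Hal (346 TPM) and Pcx (276 TPM) overlapped at the bottom. Pcx was thus the lowest of the 10 with saline and the fourth highest with rMSA. Within the rMSA group, liver 1 was the highest for 6 members (Sds, Got1, Gpt, Gls2, Hal and Oat), and liver 3 was the lowest for 5 of these, with Gpt the exception, and for Fbp1. Pck1 and Tat did not follow that order, since both were highest in rMSA liver 3 and lowest in rMSA liver 2.

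Markers of some other cell types also moved with the treatment in these libraries, where 21.8% of all tested genes passed as higher and 8.38% as lower. Of 7 stellate cell and fibroblast markers 6 passed as higher in the rMSA livers, where they summed to 266 to 341 TPM against 111 to 234 TPM with saline, and none of the 7 was at 0. Of the 5 cholangiocyte markers tested 3 passed as higher, with sums of the whole list at 77.0 to 167 TPM with rMSA and 22.5 to 38.3 TPM with saline. Of 6 endothelial markers 1 passed as higher, near the share of all genes. Of 6 Kupffer cell and macrophage markers 1 was higher and 1 lower, with sums of 247 to 369 TPM with rMSA and 257 to 405 TPM with saline. Of the 4 lymphocyte markers tested 1 was higher and 1 lower, and the list summed to at most 15.5 TPM in any liver. The hepatocyte list was split, with 2 of 8 markers higher, near the share of all genes, and 3 lower. The part of these markers in the enzyme results was not tested.

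Several of the 10 enzymes have a sister enzyme for the same reaction, often in another compartment, and these did not follow them. Got2, the mitochondrial aspartate aminotransferase, had 761 ± 19.8 TPM in the rMSA livers and 608 ± 56.8 TPM in the saline livers (SD, n = 3 each; log2 fold change 0.33, adjusted p = 0.043; 0.19, adjusted p = 0.43 after median centring). Got1 therefore made up 15.7% ± 4.6 of the summed Got1 and Got2 TPM in the rMSA livers and 75.4% ± 0.85 in the saline livers. Gpt2, the mitochondrial alanine aminotransferase, was at 497 ± 133 TPM in the rMSA livers and 491 ± 79.1 TPM in the saline livers (log2 fold change -0.01, 95% interval -0.47 to 0.46), so that Gpt made up 34.4% ± 7.1 of the pair in the rMSA livers and 51.6% ± 1.8 in the saline livers. Sdsl, a serine dehydratase-like gene next to Sds on chromosome 5, was the exception and fell with it (19.5 ± 1.5 TPM with rMSA, 42.4 ± 7.4 TPM with saline, log2 fold change -1.07, adjusted p = 0.00095). Pck2, the mitochondrial carboxykinase, had 6.30 ± 0.96 TPM with rMSA and 4.30 ± 0.98 TPM with saline (log2 fold change 0.47, adjusted p = 0.089). Pck1 still made up 99.3% of its pair in the rMSA livers, against 99.9% in the saline livers. Fbp2, the muscle bisphosphatase, reached at most 0.39 TPM in any liver and was below the filter.

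**Figure D2:**
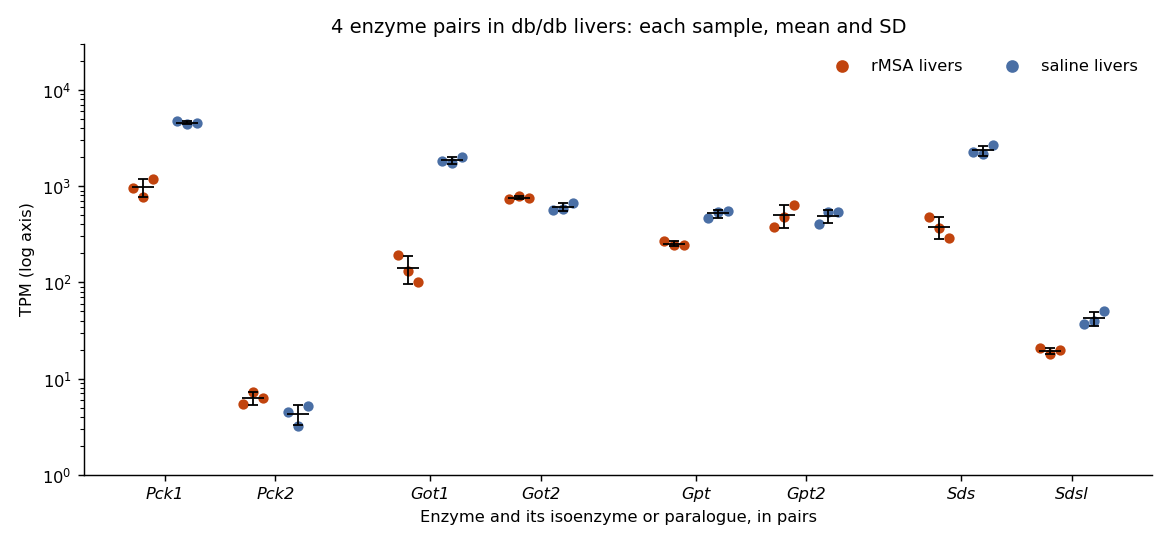
TPM (log axis) of 4 of the enzymes and their isoenzyme or paralogue in each rMSA liver and each saline liver, with mean and SD. Got1 lies below Got2 in the rMSA livers (143 against 761 TPM) and above it in the saline livers (1861 against 608 TPM), while Gpt2 averages 497 and 491 TPM.

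The other genes of the glucose path moved in both directions. Of 14 tested companions 6 were higher and 2 lower in the rMSA livers, with a median log2 fold change of 0.36 (3 higher and 2 lower after median centring). G6pc, the catalytic subunit of glucose-6-phosphatase, which releases free glucose, had 685 ± 138 TPM with rMSA and 681 ± 92.0 TPM with saline (log2 fold change -0.00, 95% interval -0.38 to 0.38). Slc37a4, the transporter that feeds it, was lower (233 ± 10.7 TPM with rMSA, 345 ± 46.6 TPM with saline, adjusted p = 0.0084). Higher were Slc25a10, the mitochondrial dicarboxylate carrier (log2 fold change 0.90, adjusted p = 0.00078), Gpd1, the cytosolic glycerol-3-phosphate dehydrogenase (1.06, adjusted p = 0.0026), and Ldha, a lactate dehydrogenase subunit (0.64, adjusted p = 0.0062; 0.50, adjusted p = 0.072 after median centring). Of 17 genes that regulate the path, or report on its hormones, 9 were lower and 3 higher, with a median log2 fold change of -0.87. The 3 higher were Cebpa (0.78, adjusted p = 0.0046), Gcgr, the glucagon receptor (0.63, adjusted p = 0.0062), and Creb3l3 (0.45, adjusted p = 0.018). Irs2 (-0.49, adjusted p = 0.11) and Nr3c1, the glucocorticoid receptor (-0.29, adjusted p = 0.48), were among those that did not pass. Igfbp1, which insulin represses, had 79.9 ± 11.4 TPM in the rMSA livers and 747 ± 101 TPM in the saline livers (log2 fold change -3.21, adjusted p = 5.4e-06). Fkbp5, a gene that glucocorticoids induce, had 25.0 ± 5.6 TPM with rMSA and 129 ± 6.7 TPM with saline (-2.34, adjusted p = 3.1e-05). Klf15, a transcription factor of amino acid catabolism, fell to 81.0 ± 12.0 TPM in the rMSA livers, against 234 ± 17.8 TPM in the saline livers (-1.52, adjusted p = 8.6e-05). Crtc2, a coactivator of CREB, fell to 21.7 ± 0.74 TPM in the rMSA livers, against 59.0 ± 1.7 TPM in the saline livers (-1.40, adjusted p = 4.1e-05).

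The falls were shared by other enzymes of amino acid breakdown. Over 5 lists with 65 genes that are not among the 10, 63 genes were tested, of which 36 were lower and 7 higher in the rMSA livers (38 and 2 after median centring). For phenylalanine, tyrosine and tryptophan 9 of 14 were lower and 1 higher (median log2 fold change -0.74). Hpd, which acts directly after Tat in tyrosine breakdown, had 1347 ± 490 TPM with rMSA and 7440 ± 259 TPM with saline (-2.52, adjusted p = 0.00013). Acmsd, an enzyme of tryptophan breakdown, fell to 4.88 ± 2.8 TPM in the rMSA livers, against 77.0 ± 33.4 TPM in the saline livers (-3.74, adjusted p = 0.00022). Afmid, kynurenine formamidase, fell less (-1.29, adjusted p = 5.3e-05). For serine, glycine and threonine 7 of 12 were lower and 2 higher (median -0.60), led by Agxt, the alanine-glyoxylate aminotransferase (-2.65, adjusted p = 5.3e-05), Gnmt, glycine N-methyltransferase (-1.93, adjusted p = 0.00025), and Sardh, sarcosine dehydrogenase (-1.21, adjusted p = 0.0015).

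For the amino acids that Gls2, Hal and Oat serve (histidine, proline, glutamine, glutamate and asparagine), 5 of 12 were lower and 2 higher, with a median log2 fold change of -0.25. Prodh, proline dehydrogenase, fell (-1.54, adjusted p = 0.00025), as did Uroc1, the urocanase that follows Hal (-0.94, adjusted p = 0.0015), Ftcd, at the end of the histidine path (-0.80, adjusted p = 0.00068), and Aldh4a1, the dehydrogenase that makes glutamate from the product shared by Prodh and Oat (-0.68, adjusted p = 0.0021). For sulfur amino acids 6 of 10 were lower and 1 higher (median -0.64). Cth, cystathionine gamma-lyase (-2.40, adjusted p = 0.00015), Ahcy, adenosylhomocysteinase (-1.69, adjusted p = 0.00016), and Mat1a, the liver methionine adenosyltransferase (-1.46, adjusted p = 8.0e-05), were lower. Csad, a decarboxylase of taurine synthesis, was the 1 that rose, to 459 ± 79.8 TPM in the rMSA livers, against 37.8 ± 6.3 TPM in the saline livers (3.57, adjusted p = 5.5e-06). For branched-chain amino acids and lysine 9 of 15 were lower and 1 higher (median -0.66), among them Aass of lysine breakdown (-2.41, adjusted p = 8.6e-05) and Ivd, isovaleryl-CoA dehydrogenase (-1.49, adjusted p = 7.2e-05).

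**Figure D3:**
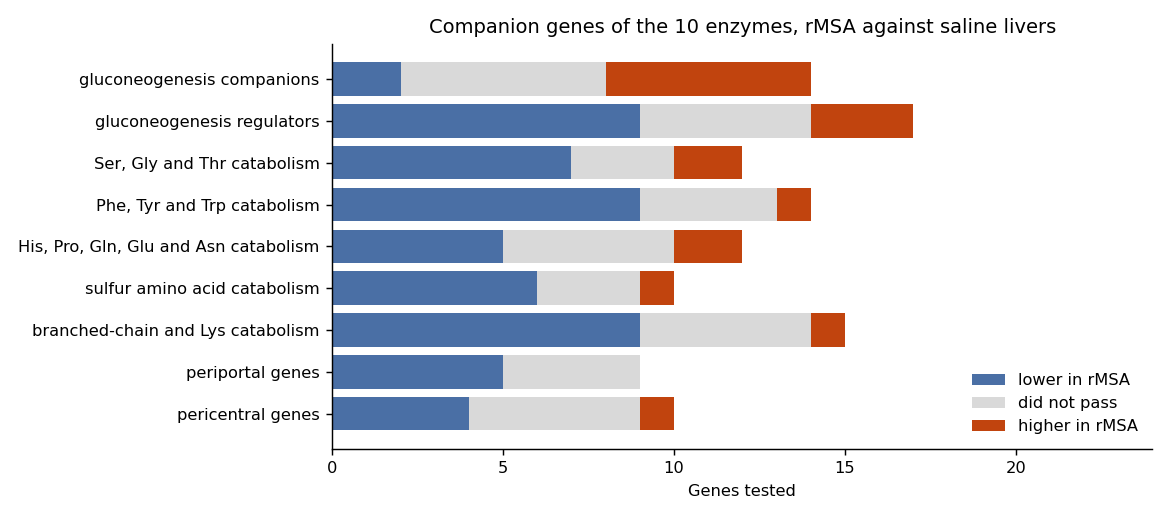
Number of genes tested in each list of companion genes, split into those lower in the rMSA livers, those that did not pass (adjusted p of 0.05 or more), and those higher. Lower calls outnumber higher ones in 8 of the lists, and the companions of gluconeogenesis have 6 higher and 2 lower.

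Hepatocytes differ along the lobule, and Pck1, Sds, Hal and Gls2 are known as periportal enzymes, whereas Oat belongs to the cells around the central vein. Both kinds fell in the rMSA livers. Of 9 further periportal genes 5 were lower and 0 higher. Ass1, Asl, Cps1 and Arg1 of the urea cycle were among them. Ass1 had 3896 ± 1323 TPM in the rMSA livers and 14393 ± 1079 TPM in the saline livers (log2 fold change -1.93, adjusted p = 0.00047). Of 10 pericentral genes 4 were lower and 1 higher, with a median log2 fold change of 0.003. Lgr5 (0.04) and Axin2 (0.26) were among those that did not pass. Cyp2e1, a cytochrome P450, fell (-1.13, adjusted p = 0.0026), and Slc1a2, a glutamate transporter, fell (-1.90, adjusted p = 0.00028). Glul, glutamine synthetase, which fixes ammonia into glutamine, rose to 729 ± 65.3 TPM in the rMSA livers, against 428 ± 15.3 TPM in the saline livers (0.76, adjusted p = 0.0010).

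In AML12 hepatocytes the 10 enzymes formed a different set. Only Pcx, Got1, Gpt, Gls2 and Oat reached a mean of 1 TPM and were tested, among 10826 genes. Got1 led in all 4 groups (134 ± 10.8 TPM with rMSA + insulin, 119 ± 12.2 TPM with rMSA, 90.8 ± 44.3 TPM with insulin and 114 ± 7.1 TPM with vehicle), and Gpt came next in all 4. Tat was between 0.18 and 0.24 TPM with rMSA, 0.11 and 0.27 TPM with insulin and 0.39 and 0.70 TPM with vehicle, and at 0.1, 0 and 0.1 TPM with rMSA + insulin. Sds reached at most 0.29 TPM and Hal 0.37 TPM in any sample. Pck1 was listed at 0 in all rMSA + insulin and all rMSA samples, and at no more than 0.05 TPM with insulin and 0.03 TPM with vehicle. Sister enzymes were above them, as Pck2 had 83.3 ± 1.2 TPM and Sdsl 31.2 ± 2.1 TPM with vehicle. G6pc was not analysed here in AML12 hepatocytes.

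Against vehicle, rMSA moved none of the 5 tested enzymes past the threshold. Over all genes 639 were higher and 205 lower, 7.80% of all tested (724 and 623 after quantile normalisation). By unadjusted p under 0.05 the members also numbered 0, beside 18.8% of all genes. With only 5 members, counts of 0 cannot be told apart from these shares. Pcx had 10.2, 9.15 and 8.48 TPM with rMSA, against 6.95, 7.77 and 7.68 TPM with vehicle, so every rMSA sample was above every vehicle sample (log2 fold change 0.28, SE 0.18, adjusted p = 0.51). Gls2 had 10.2, 9.81 and 10.8 TPM with rMSA, against 11.7, 11.7 and 12.1 TPM with vehicle, and the groups did not overlap (-0.19, SE 0.14, adjusted p = 0.60). Oat had 36.7, 35.0 and 32.1 TPM with rMSA, against 31.7, 31.3 and 28.1 TPM with vehicle, and again did not overlap (0.18, SE 0.38, adjusted p = 0.93). Groups apart in this way were common, at 25.5% of all genes as higher and 14.2% as lower. Got1 (0.06, adjusted p = 0.98) and Gpt (0.10, adjusted p = 0.65) overlapped, and Got1 changed sign under median centring, quantile normalisation and rescaling without ribosomal protein genes. The errors come from all 12 samples, including the scattered insulin samples. Without a filter on low values, Tat also passed as lower (-0.34, adjusted p = 0.020), at levels under 1 TPM.

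Against insulin alone, rMSA + insulin raised Pcx and no other tested member, against 14.5% of all genes higher and 2.73% lower (1575 and 296 genes, or 935 and 888 after quantile normalisation). Pcx had 12.3, 11.5 and 14.3 TPM with rMSA + insulin, against 4.93, 6.06 and 8.85 TPM with insulin. The groups did not overlap, as for 20.7% of all genes in this direction. The log2 fold change was 0.88 (SE 0.18, adjusted p = 0.0067), with adjusted p = 0.12 when only these 2 groups entered the fit. Without insulin samples 1 and 2 the log2 fold change was 0.47, against insulin sample 3 alone. Got1 had 132, 125 and 146 TPM with rMSA + insulin, against 72.6, 58.6 and 141 TPM with insulin (0.66, adjusted p = 0.10). Insulin sample 3 lay within the rMSA + insulin range, and without insulin samples 1 and 2 the log2 fold change was -0.08. Oat had 19.2, 14.8 and 21.8 TPM with rMSA + insulin, against 17.6, 6.66 and 29.2 TPM with insulin (0.25, adjusted p = 0.69). Its value turned to -0.64 without insulin samples 1 and 2, against insulin sample 3 alone, so no direction can be given for Oat here. Gls2 (-0.10, adjusted p = 0.65) and Gpt (0.05, adjusted p = 0.72) overlapped, and Gpt turned negative under 3 scalings.

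**Figure D4:**
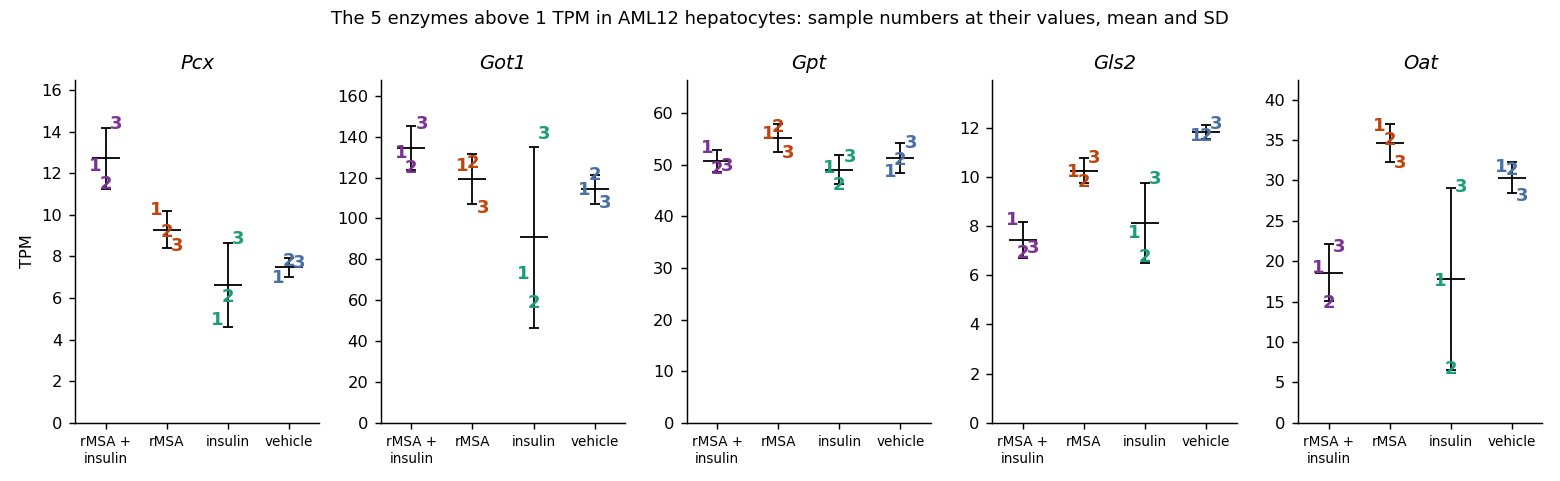
TPM (linear axis from 0) of the 5 enzymes that reached 1 TPM in AML12 hepatocytes with rMSA + insulin, rMSA, insulin or vehicle; each digit is a sample number at its value, with mean and SD in black. Insulin samples 1 and 2 lie far below insulin sample 3 for Got1 (72.6 and 58.6 against 141 TPM) and Oat (17.6 and 6.66 against 29.2 TPM).

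Insulin against vehicle gave 0 calls among all 10826 genes by limma, although 3969 had an unadjusted p under 0.05, and 2 of the 5 members were among these. Gls2 had 7.74, 6.73 and 9.92 TPM with insulin, against 11.7, 11.7 and 12.1 TPM with vehicle, so that every insulin sample was lower (log2 fold change -0.51, SE 0.14, unadjusted p = 0.0038, adjusted p = 0.13); groups apart and lower were found for 11.8% of all genes. Oat had 17.6, 6.66 and 29.2 TPM with insulin, against 31.7, 31.3 and 28.1 TPM with vehicle, and overlapped through insulin sample 3 (-0.95, SE 0.38, adjusted p = 0.13). Without insulin samples 1 and 2, Gls2 stood at -0.23 and Oat at -0.05. Without insulin sample 3, 4 of the 5 passed as lower, all except Gpt, but so did 6635 of all 10828 genes tested, with 770 higher. The count therefore rested on which insulin samples were used.

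Adding insulin to rMSA allowed a comparison without the scattered insulin group. Against rMSA alone, 0 of the 5 passed with the spread of all 12 samples, against 4.05% of all genes (319 higher and 119 lower, or 1048 and 870 after quantile normalisation). An unadjusted p under 0.05 was found for 3 members, and for 26.9% of all genes. Oat had 19.2, 14.8 and 21.8 TPM with rMSA + insulin, against 36.7, 35.0 and 32.1 TPM with rMSA (log2 fold change -0.88, SE 0.38, adjusted p = 0.17). Gls2 had 8.26, 6.91 and 7.13 TPM with rMSA + insulin, against 10.2, 9.81 and 10.8 TPM with rMSA (-0.42, SE 0.14, adjusted p = 0.11). Both were lower in every rMSA + insulin sample, as were 37.1% of all genes. Pcx had 12.3, 11.5 and 14.3 TPM with rMSA + insulin, against 10.2, 9.15 and 8.48 TPM with rMSA, and was higher in every sample (0.41, SE 0.18, adjusted p = 0.17), as were 18.6% of all genes. All 3 passed when only these 2 groups were fitted (adjusted p = 0.0058 for Oat, 0.020 for Gls2 and 0.029 for Pcx) and when insulin samples 1 and 2 were left out (0.0011, 0.0053 and 0.011). In those fits 1307 genes were higher and 3333 lower, and 1560 higher and 4009 lower. Got1 (0.17, adjusted p = 0.63) and Gpt (-0.12, adjusted p = 0.32) did not pass in either.

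The same gene lists were examined in AML12 hepatocytes. Of 42 tested genes of amino acid breakdown, rMSA against vehicle lowered 1, Gstz1 of tyrosine breakdown (28.3 ± 1.6 TPM with rMSA, 37.7 ± 1.5 TPM with vehicle, log2 fold change -0.40, adjusted p = 0.043), and raised 0 by limma. When only the groups compared were fitted, without the insulin samples that enter the shared spread, it lowered 9 and raised 6. In that fit 802 of all 10885 genes were lower and 1837 higher. Ldha, the 1 companion of gluconeogenesis that passed, had 682 ± 28.8 TPM with rMSA and 440 ± 15.3 TPM with vehicle (0.63, adjusted p = 0.00081). None of the 14 tested regulators passed. With only the groups compared 2 of them were higher and 1 lower, beside 1837 and 802 of all 10885 genes. With rMSA + insulin against insulin, 6 of the 42 were higher and 4 lower, beside 14.5% and 2.73% of all genes, so the share of higher calls was near that of all genes. Leaving out insulin samples 1 and 2 leaves insulin sample 3 as the whole insulin group, so only log2 fold changes of that fit are given. When only the groups compared were fitted, 1 was higher and 0 lower, beside 289 and 42 of all 10702 genes. Of the genes named next, only Shmt2 and Ldha passed in that fit of 2 groups, and after median centring Shmt2 (0.51, adjusted p = 0.15), Bckdha (-0.64, adjusted p = 0.11), Got2 (0.088, adjusted p = 0.77), Mdh2 (0.086, adjusted p = 0.75) and Crtc2 (0.32, adjusted p = 0.17) did not pass. Shmt2, the mitochondrial serine hydroxymethyltransferase, had 310 ± 9.1 TPM with rMSA + insulin and 184 ± 32.1 TPM with insulin (0.76, adjusted p = 0.00099; 0.72 without those 2 samples). Suox, sulfite oxidase, was also higher (0.96, adjusted p = 0.0070; 0.64 without them), while Pcbd1, of the tetrahydrobiopterin cycle, was lower (-0.37, adjusted p = 0.033; -0.46 without them), as were Sardh (-0.36, adjusted p = 0.049) and Bckdha, a branched-chain keto acid dehydrogenase subunit (-0.38, adjusted p = 0.024). Cth (1.77, adjusted p = 0.016), Gpt2 (1.03, adjusted p = 0.022), Gldc (0.85, adjusted p = 0.031), Prodh2 (-0.78, adjusted p = 0.032) and Got2 (0.34, adjusted p = 0.012) passed with all samples. Without insulin samples 1 and 2 they were nearer to no change, at 0.64, 0.36, 0.23, -0.64 and 0.19. Among companions and regulators, Ldha (0.85, adjusted p = 7.5e-05), Mdh2 (0.34, adjusted p = 0.014) and Crtc2 (0.57, adjusted p = 0.0052) were higher and Gpd1 lower (-0.47, adjusted p = 0.017). Mdh2 was at 0.17 without insulin samples 1 and 2, and passed under none of the 3 scalings. Cebpb (1.31, adjusted p = 0.019) and Fkbp5 (0.83, adjusted p = 0.032) were also higher, with wide scatter in the insulin group (74.5 ± 45.1 and 20.4 ± 8.8 TPM). The median log2 fold change of the tested regulators was 0.15 with all samples and -0.32 against insulin sample 3 alone. Over all genes tested the medians were 0.21 and -0.13. Values of single regulators without insulin samples 1 and 2 are not given here. Insulin against vehicle called 0 genes of any list, as it called 0 of all genes. Against rMSA alone, rMSA + insulin raised Shmt2 (0.72, adjusted p = 0.0079) and lowered Glul, which had 75.3 ± 10.6 TPM with rMSA + insulin and 139 ± 9.9 TPM with rMSA (-0.89, adjusted p = 0.020). The 1 higher and 0 lower of the 42 became 4 and 8 when only these 2 groups were fitted, where 1307 of all 10882 genes were higher and 3333 lower. In that fit 2 of the 13 companions were higher and 4 lower, and of 15 regulators 1 was higher and 8 lower. All samples together gave 0 for both lists.

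The interaction of rMSA and insulin, which asks whether the effect of rMSA differed with insulin present, passed for 0 of the 5 members and for 0.0369% of all genes. Pcx alone of the 5 had an unadjusted p under 0.05, as did 6.45% of all genes. Its interaction was 0.60 on the log2 scale (SE 0.25, adjusted p = 0.74). Across the 12 AML12 samples, which share the treatment groups and the scatter of the insulin samples, Pearson's r on log2(TPM + 1) was 0.81 for Gls2 and Oat, 0.79 for Pcx and Got1, 0.72 for Gpt and Oat and 0.67 for Got1 and Oat, and -0.20 for Pcx and Gls2. No pooled correlation is given for the livers, where the groups formed separate clusters.

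**Figure D5:**
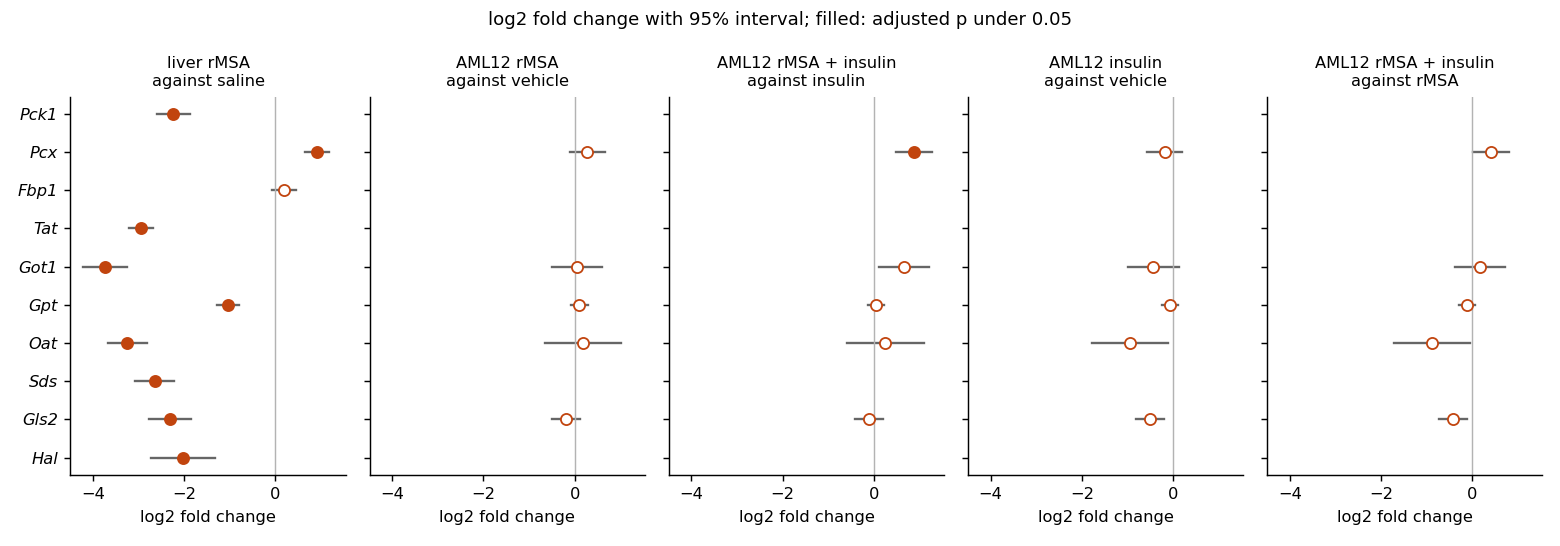
log2 fold change with its 95% interval (limma) for each enzyme tested in the liver and in 4 AML12 comparisons, filled where the adjusted p was under 0.05; genes below the filter or not analysed have no point. In the liver 8 points lie below 0 and Pcx at 0.91, while in AML12 the filled point is Pcx with rMSA + insulin against insulin (0.88).

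Side by side over both tables, Pcx was on the higher side with rMSA in the liver (0.91) and in AML12 without and with insulin (0.28 and 0.88), of which the middle value did not pass. Got1 and Gpt had log2 fold changes of -3.74 and -1.04 in the liver and of 0.06 and 0.10 in AML12 without insulin. Gls2 was -2.31 in the liver and -0.19 in AML12, and Oat -3.26 in the liver and 0.18 in AML12. Differences between liver and AML12 were not tested, since the tables were normalised separately and the treatments differed in dose, route and time.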

How the data were processed

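RNA was measured in 6 livers and 12 AML12 samples. Each experiment has 1 table of TPM, computed by the authors from their sequencing reads and deposited with 2 decimals. The submitters' processing notes name Trimmomatic 0.33, STAR 2.5.2b, featureCounts, Subread 1.6.0 and the genome build GRCm38; no annotation, strand setting or TPM formula is stated there. The authors tested with DESeq2, which needs read counts that TPM does not keep, so depth and counting precision are unknown here. TPM is a share of a fixed total, so a rise of abundant transcripts lowers the others. 

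Values were taken as log2(TPM + 1), and genes averaging at least 1 TPM within an experiment were tested with limma 3.58.1 (R 4.3.3; 1 mean per group, trended empirical Bayes, Benjamini-Hochberg adjustment over all genes of a comparison). The 4 AML12 groups shared a fit, so comparisons share samples and the error. Intervals are 95% intervals. The fit was tested on simulated data. The spread of 3 samples sets the precision. All per-sample columns were mapped to a sample by name (0 were not used), and 23 liver symbols that had turned into dates were repaired by gene ID.

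The 10 members, the gene lists and the motifs were chosen with earlier results of these data known, as was leaving out insulin samples 1 and 2. Named were all 10 members, 6 sister or path genes, and up to 4 genes per list and comparison with the smallest p among those passing, except for items that are not reported here. Positions and promoter windows are from RefSeq (GRCm38.p6), which matched all 10 members by gene ID and 7 by promoter window. Alternatives were other pseudocounts (0.1 and 5 TPM), filters (none, 5 TPM), scalings (median, quantile, without ribosomal protein genes), robust or array-weighted fits, a replicate block, fits of only the groups compared, and leaving out samples. The replicate block, run in every comparison, treated same-numbered samples as paired and changed no count of members. Deviations of same-numbered samples correlated at 0.53, 0.14 and 0.58 for rMSA and vehicle in AML12. For rMSA + insulin and insulin they correlated at 0.095, 0.79 and 0.80. Each of the other comparisons had at least 1 correlation under 0.1.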

Additional observations from a re-analysis of the deposited data

Results flagged for a closer look

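Oat lay on opposite sides of its control with rMSA in the 2 experiments, which is why it is set apart here: all 3 rMSA livers were below all 3 saline livers (log2 fold change -3.26), while all 3 AML12 rMSA samples were above all 3 vehicle samples (log2 fold change 0.18, adjusted p = 0.93). Groups lay apart as lower for 13.0% of all tested liver genes, and as higher for 25.5% of all tested genes in this AML12 comparison. The AML12 change of Oat did not pass, and the difference between the experiments was not tested. Groups of 3 samples are too small for a test of outlying samples.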

How the results depend on the processing

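In the liver the count of 9 passing members was the same under every alternative except quantile normalization, which gave 10 by adding Fbp1 (0.43, adjusted p = 0.011), and the log2 fold changes of the 9 ranged over 0.77 to 1.01 for Pcx, -1.18 to -0.99 for Gpt, and -3.99 to -3.53 for Got1. The replicate block gave the same counts as the fit without it (9 in the liver, 0 for rMSA against vehicle, 1 for rMSA + insulin against insulin, 0 for insulin against vehicle, 0 for rMSA + insulin against rMSA, and 0 for the interaction). In AML12 hepatocytes array weights were not run, because their estimate did not converge. Members passing numbered 1 for rMSA against vehicle without a filter on low values (Tat). For rMSA + insulin against insulin they numbered 0 with only the groups compared, and 1 to 2 when single samples were left out. When single samples were left out, they numbered 0 to 4 for insulin against vehicle and 0 to 2 for the interaction. For rMSA + insulin against rMSA they numbered 1 with median centring, 2 with quantile normalization, 3 with only the groups compared, and 0 to 3 when single samples were left out. The 4, the 2 of the interaction (Got1 and Pcx) and the 3 came without insulin sample 3, whose removal leaves the samples that stand apart. Of all 10828 genes tested in that fit, 770 were higher and 6635 lower for insulin against vehicle. The interaction gave 317 higher and 16 lower, and rMSA + insulin against rMSA gave 1048 higher and 2292 lower.

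No reversed value had passed in the analysis reported. For rMSA against vehicle, Got1 became -0.0086 with median centring, -0.0036 with quantile normalization and -0.016 without ribosomal protein genes. For rMSA + insulin against insulin, median centring, quantile normalization, removal of ribosomal protein genes and removal of insulin samples 1 and 2 gave -0.21, -0.16, -0.080 and -0.024 for Gpt; median centring, quantile normalization and removal of insulin samples 1 and 2 gave -0.0022, -0.035 and -0.64 for Oat, with -0.29 to 0.70 when single samples were left out; Got1 became -0.077 without insulin samples 1 and 2, and Gls2 ranged over -0.22 to 0.034 when single samples were left out. For insulin against vehicle, Gpt was 0.33 with median centring, 0.17 with quantile normalization, 0.031 without ribosomal protein genes and 0.0084 without insulin samples 1 and 2; Pcx was 0.21 with median centring, 0.28 with quantile normalization and 0.22 without those samples, where Got1 was 0.31. For rMSA + insulin against rMSA, Gpt was 0.087 with median centring. The cause was not tested. Depth is unknown, so the precision of low values such as Tat in AML12 cannot be given.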
